A study of Mus musculus with 8 samples.

Results

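The histone acetyltransferases described here are Ep300 and Crebbp of the p300/CBP family, Kat2a and Kat2b of the GCN5/PCAF family, and Kat5, Kat6a, Kat6b, Kat7 and Kat8 of the MYST family. They were chosen by symbol, matched to the Ensembl mouse identifiers of the count table, and all 9 were found among its 56953 gene identifiers. The title of the series concerns acetylation of histone H3 in colorectal cancer, and RNA was sequenced to describe how the drug mLJZD, a name the labels leave unexpanded, acts on tumours and on cultured cells.

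All 8 libraries come from CT26, an established mouse colon carcinoma cell line, in 4 groups of 2. Saline tumours were CT26 transplants in animals given normal saline, and mLJZD tumours were transplants in animals given mLJZD. Control cultures were CT26 cells kept for 48 hours in 10% control serum, and mLJZD cultures were kept for the same time in 10% serum that contained the drug. The labels name no genetic change in the cells and mark the groups without the drug as wild type. Host strain, sex, age, site of the transplant, drug dose and the source of the sera are not stated in the labels. The tumours are whole tissue, so their RNA mixes CT26 cells with host cells, and in such bulk material fewer cells of a type and less RNA per cell cannot be told apart.

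Library totals ran from 16594912 to 29363861 counts, and the 9 genes had between 139 and 3954 counts in a library. The epithelial and colon markers expected of a colorectal line were low everywhere, with a summed level of 26.2 to 26.5 CPM (counts scaled to the library total) over 12 genes in saline tumours, 11.7 to 13.3 in mLJZD tumours, 39.8 to 47.5 in control cultures and 41.5 to 45.1 in mLJZD cultures. The lower sum in mLJZD tumours came mostly from Krt18, which went from 15.8 to 16.6 down to 1.86 to 2.23 CPM. Krt8 also fell, from 2.39 to 3.28 down to 0.273 to 0.362. In the same list Cdh1 went from 2.95 to 3.28 up to 3.98 to 4.75, and Cdh17 from 1.01 to 1.17 up to 2.78 to 3.19. Krt18 made up most of the sum in the cultures too, so the sum is not a measure of the list as a whole. Epcam had no count in any culture library and Cdx2 none in any tumour library. Other cell types moved with the drug in the tumours. The summed level of 15 skeletal muscle markers was 3155 to 3185 CPM in saline tumours and 577 to 579 in mLJZD tumours, 8 B and plasma cell markers went from 47.8 to 49.1 up to 344 to 379, and 10 macrophage markers from 1591 to 1602 down to 1347 to 1405. The sum of 12 neutrophil markers went from 20.97 to 21.12 up to 39.05 to 42.13 CPM, and that of 6 erythroid markers from 18.2 to 22.2 up to 43.7 to 47.0. In saline and mLJZD tumours, 8 T cell markers summed to 64.3 to 65.3 and 53.8 to 57.8 CPM. The 8 endothelial markers summed to 214.6 to 216.7 and 220.8 to 226.1, and 8 fibroblast markers to 3286 to 3296 and 3631 to 3712. The part of these shifts in the tumour results below was not tested. In the cultures the muscle list summed to at most 3.33 CPM, the B cell list to at most 0.512 and the macrophage list to at most 10.6. The fibroblast list was high there too, at 1862 to 1998 CPM with control serum and 1857 to 2193 with mLJZD serum.

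Histone acetyltransferases move the acetyl group of acetyl-CoA onto lysines of histone tails, which loosens the hold of the tail on DNA and makes binding sites for proteins with bromodomains or YEATS domains. p300 and CBP are large coactivators recruited by many transcription factors and deposit acetylation at lysine 27 of histone H3 on enhancers and promoters. GCN5, the product of Kat2a, and PCAF, the product of Kat2b, work in the SAGA and ATAC complexes and acetylate lysine 9 of histone H3. The MYST enzymes each sit in complexes of their own. Kat5 (TIP60) belongs to the NuA4 complex and also acts in the DNA damage response, Kat6a (MOZ), Kat6b (MORF) and Kat7 (HBO1) work with BRPF or JADE scaffolds, and Kat8 (MOF) acetylates lysine 16 of histone H4.

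Promoter windows are shown for 3 genes that moved in different ways in the cultures, Ep300, its paralogue Crebbp, and Kat5. Each holds the 250 bases before the annotated start, 5′ to 3′ on the strand of the gene, from RefSeq on GRCm38.p6, which is an earlier build than the one the counts were made on. The windows are chr15:81585964-81586213 on the plus strand for Ep300, chr16:4213405-4213654 on the minus strand for Crebbp and chr19:5610095-5610344 on the minus strand for Kat5. Capitals mark matches, on either strand, to GGGCGG (a GC box), CCGGAAG (an ETS motif), TGACG (the core of a cyclic AMP response element), CACGTG (an E-box) and TGCGCA (the core of an NRF1 site).
Ep300: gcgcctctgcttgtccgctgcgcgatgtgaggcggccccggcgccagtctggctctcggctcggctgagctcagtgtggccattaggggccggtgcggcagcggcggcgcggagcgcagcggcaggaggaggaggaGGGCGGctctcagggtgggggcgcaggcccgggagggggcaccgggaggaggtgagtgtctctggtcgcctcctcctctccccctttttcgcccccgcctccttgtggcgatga
Crebbp: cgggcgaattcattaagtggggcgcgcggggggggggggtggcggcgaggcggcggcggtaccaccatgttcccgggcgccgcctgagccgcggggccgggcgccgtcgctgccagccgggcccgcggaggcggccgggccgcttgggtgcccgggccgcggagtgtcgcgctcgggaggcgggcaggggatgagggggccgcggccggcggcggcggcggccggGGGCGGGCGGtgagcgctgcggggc
Kat5: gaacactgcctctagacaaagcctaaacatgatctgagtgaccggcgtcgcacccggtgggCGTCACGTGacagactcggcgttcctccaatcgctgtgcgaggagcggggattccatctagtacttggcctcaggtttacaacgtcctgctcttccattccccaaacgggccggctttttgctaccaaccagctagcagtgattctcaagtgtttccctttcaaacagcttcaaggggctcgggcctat
The Ep300 window had 1 GC box and the Crebbp window 2 that overlap, and neither held another of the motifs. The Kat5 window had 1 TGACG and 1 CACGTG, which overlap in the run of capitals, and no GC box. Of 27025 genes with such a window, 32.9% held a GC box, 17.9% TGACG, 6.05% CACGTG, 7.05% the ETS motif and 6.66% the NRF1 core. GC content was 73.2% in the Ep300 window, 84.0% in that of Crebbp and 55.2% in that of Kat5, against a median of 52% over all genes. The windows held 25, 44 and 15 CpG dinucleotides in that order, against a median of 6. Windows were found for 8 of the 9 genes. The sequences are those of the reference strain, not of CT26.

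Levels between genes were compared per transcript length, as TPM, counts per base of the longest transcript in GENCODE M21 scaled to a fixed library sum. Kat2a and Kat7 were the most abundant of the 9 in every group, and Crebbp and Kat6b the least. In saline tumours Kat2a stood at 74.9 ± 2.2 TPM (SD, n = 2) and Kat7 at 72.8 ± 0.37, followed by Kat6a at 53.6 ± 0.060 and Ep300 at 46.8 ± 0.47. Kat2b at 34.7 ± 0.22 and Kat5 at 34.5 ± 0.099 overlapped, and below them came Kat8 at 16.0 ± 0.23, Kat6b at 13.0 ± 0.12 and Crebbp at 12.1 ± 0.94. The order was similar in mLJZD tumours, where Kat5, Ep300 and Kat2b overlapped their neighbours between 33.8 and 36.8 TPM, and Kat8, Kat6b and Crebbp between 11.2 and 12.3.

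Control cultures had a steeper order. Kat2a at 66.0 ± 5.7 TPM, Kat7 at 42.3 ± 3.2 and Kat5 at 33.1 ± 0.94 kept apart from each other and from the rest, while Ep300 at 6.26 ± 0.48 and Kat6a at 6.46 ± 0.44 overlapped near the bottom. Kat8 at 11.1 ± 1.8 and Kat2b at 10.4 ± 1.6 also overlapped. In mLJZD cultures Kat6a at 28.9 ± 1.1 and Ep300 at 28.9 ± 2.0 again overlapped, now close under Kat5 at 34.0 ± 3.1. Summed over all 9 genes the level was 358 ± 2.6 TPM in saline tumours, 310 ± 17 in mLJZD tumours, 181 ± 14 in control cultures and 309 ± 1.5 in mLJZD cultures. The sum over the p300/CBP family was 58.8 ± 0.47, 45.7 ± 3.7, 9.59 ± 0.50 and 35.7 ± 3.6 TPM in that order of groups. TPM divides by the same length in every library, so differences between groups still carry the relation with transcript length described below. Kat5, for instance, had a mean of 35.3 CPM in control cultures and 29.8 in mLJZD cultures, but 33.1 and 34.0 TPM. With merged exon length in place of the longest transcript, 4, 5, 2 and 1 of the 36 pairs of genes changed order in the same 4 groups. Kat6a then stood above Kat7 in saline tumours, at 69.2 against 60.9 TPM, and Kat8 lay below Crebbp in both tumour groups.

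**Figure D1:**
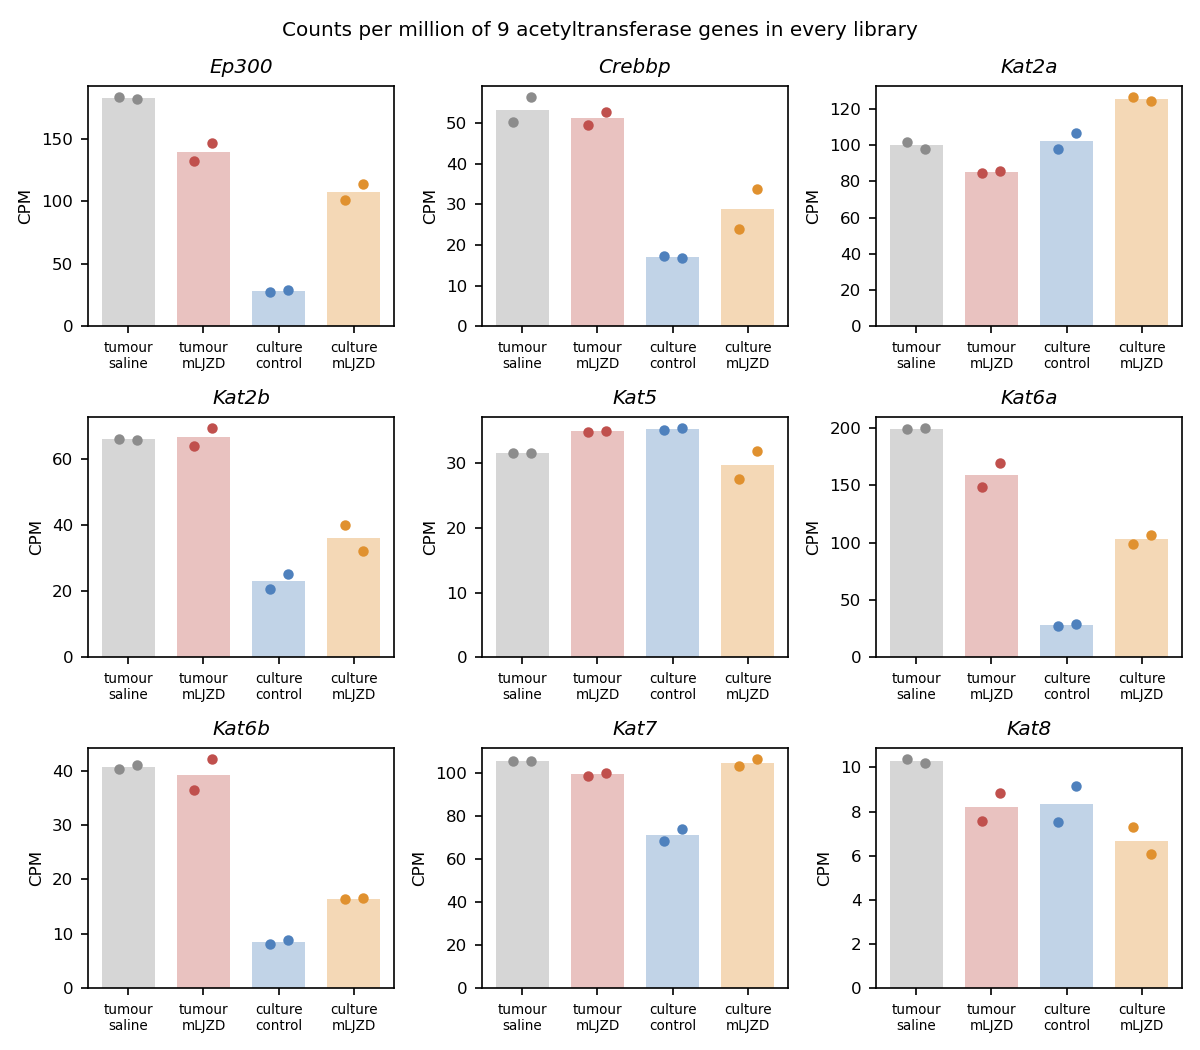
CPM of each acetyltransferase gene (vertical axes from 0, each with its own scale) in the 4 groups, with a point for each library and a bar for the mean of 2. Ep300 and Kat6a are low in control cultures and higher in mLJZD cultures, and all mLJZD tumour points of these 2 genes lie below the saline tumour points.

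Effects of the drug were tested gene by gene with edgeR's quasi-likelihood test and adjusted over all genes tested, at an adjusted p under 0.05. In the tumours 31.4% of 15417 genes tested were called, 15.4% higher and 16.0% lower with mLJZD, and of the 9 acetyltransferase genes 3 fell and none rose. That share is near the background. The unadjusted p was under 0.05 for 4 of the 9 in edgeR, the fourth being Kat5. Over all genes it was under 0.05 for 6235 of 15417, so this share too is near the background. In the cultures 55.4% of 13299 genes tested were called, 28.8% higher and 26.6% lower, and of the 9 genes 7 rose and 1 fell. The median log2 fold change of the 9 was -0.055 in tumours and 0.59 in cultures, and over all genes tested 9.5e-04 and -0.013.

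The culture values need transcript length beside them, because fold changes in the cultures ran along it. Over protein-coding genes the median log2 fold change was -0.76 for transcripts under 1000 bases, -0.48 from 1000 to 2000, -0.085 from 2000 to 4000, 0.41 from 4000 to 8000 and 1.00 over 8000. Of the 632 genes over 8000 bases, 82.9% were called higher. The same classes in the tumours had medians from 0.090 for the shortest to -0.080 for the longest. The 9 genes are spread over these classes, with Kat8 at 1579 bases, Kat5 at 2245, Kat2a at 3269, Kat7 at 3560, Kat2b at 4653, Kat6b at 7699, Kat6a at 9113, Ep300 at 9566 and Crebbp at 10820. The longest transcript of Kat2a is annotated as a processed transcript and that of Kat5 as a target of nonsense-mediated decay. Across the 9 genes the rank correlation of length with the culture log2 fold change was 0.90, and with the tumour log2 fold change -0.23, given as a description since the 9 genes share their libraries.

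A second set of values was therefore computed with the trend of log2 counts on transcript length and GC content taken out of each library, and is called trend-removed here. On this scale 39.2% of all genes tested in the cultures were called, 18.6% higher and 20.7% lower, and of the 9 genes 4 rose and none fell. The removal left part of the trend, since the class medians then ran from -0.36 for the shortest to 0.14 for the longest. In the tumours 33.2% of all genes were called with the trend removed, and of the 9 genes 1 rose and 3 fell. The source of the relation with length was not tested.

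**Figure D2:**
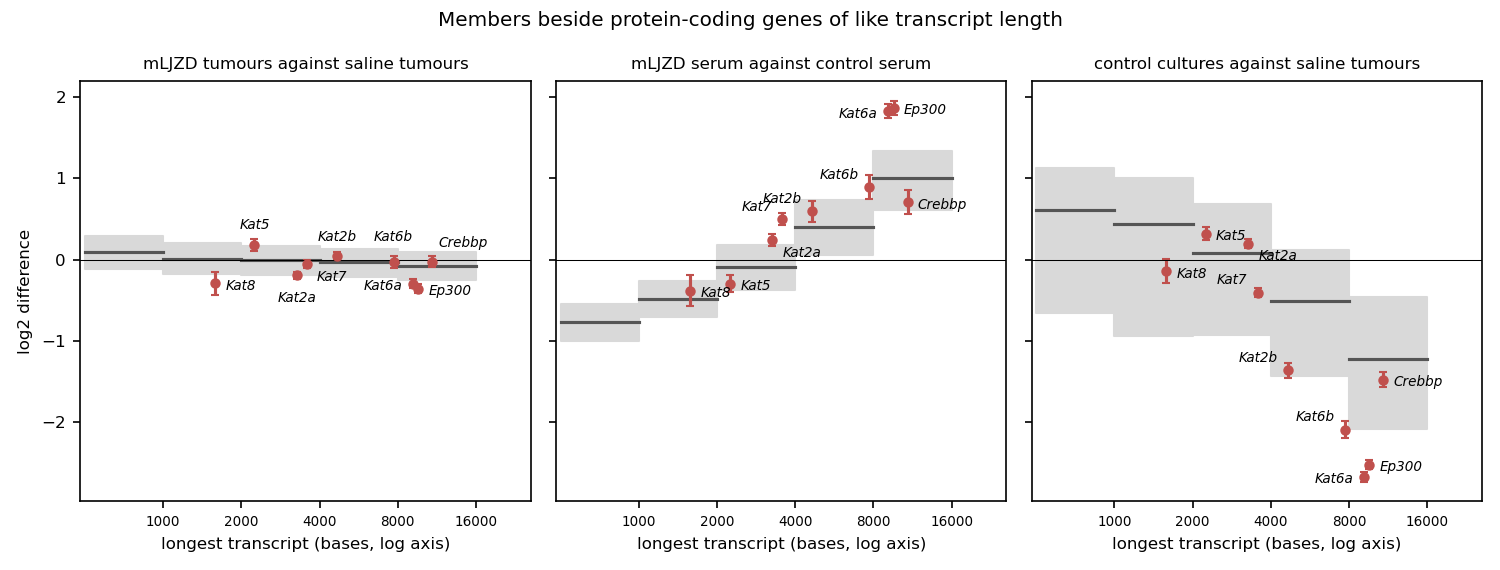
Log2 difference of each gene (vertical axis, ± SE) against the length of its longest transcript in bases (log axis) in 3 comparisons. Grey boxes give the quartiles and dark lines the median of protein-coding genes in 5 length classes. Ep300 and Kat6a lie above the upper quartile of their class in the cultures, at 1.87 and 1.83. So do Kat6b at 0.89, Kat7 at 0.50 and Kat2a at 0.24. Crebbp, the longest, lies inside its box at 0.71.

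Ep300, which encodes p300, fell in the tumours and rose in the cultures. Its level was 183 and 182 CPM in the saline tumours and 132 and 147 in the mLJZD tumours. The groups did not overlap, and the log2 fold change was -0.36 (SE 0.058, adjusted p = 1.35e-04 in edgeR). Trend-removed it was -0.27 (adjusted p = 4.34e-04). The call held on leaving out either mLJZD tumour, although the adjusted p then rose to 0.0495 without replicate 1 and 0.0238 without replicate 2. In the control cultures Ep300 stood at 27.3 and 29.5 CPM, from 640 and 654 counts, and in the mLJZD cultures at 102 and 114 CPM, from 2076 and 3346 counts. Every mLJZD library was above every control library by a wide margin, a 3.65-fold rise (log2 1.87, SE 0.090, adjusted p = 2.78e-09). With the trend removed the rise was 1.09 on the log2 scale (adjusted p = 3.45e-06), so 0.78 of the log2 value went with length and GC content. The median of its length class was 1.00, with quartiles of 0.61 and 1.34.

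Crebbp encodes CBP, the close paralogue of p300. Its level was 50.1 and 56.3 CPM in the saline tumours and 49.6 and 52.7 in the mLJZD tumours, which overlapped, and the log2 fold change was -0.026 (SE 0.067, adjusted p = 0.815). In the cultures it was 17.3 and 16.9 CPM with control serum and 23.9 and 33.9 with mLJZD serum. The mLJZD libraries lay above the control libraries but far apart from each other. The log2 fold change was 0.71 (SE 0.15, adjusted p = 0.00104), below the median of its length class. It was 0.44 without mLJZD replicate 2 and 0.93 without mLJZD replicate 1, and the call held in both fits. Trend-removed it was -0.11 (adjusted p = 0.596), and 0.12 with merged exon length in the trend (adjusted p = 0.571). The call in the cultures ended with either length, and the sign turned with the longest transcript but not with merged exons.

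The balance of the paralogues was read within each library, where scaling between libraries cancels. The ratio of Ep300 to Crebbp counts was 3.66 and 3.23 in the saline tumours, 2.67 and 2.78 in the mLJZD tumours, 1.58 and 1.74 in the control cultures, and 4.25 and 3.36 in the mLJZD cultures. It was lower with the drug in the tumours and higher in the cultures, without overlap. A two-sided exact permutation test of 2 libraries against 2 cannot give a p below 0.333, and no other test of the ratio was made. Both transcripts are over 8000 bases.

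**Figure D3:**
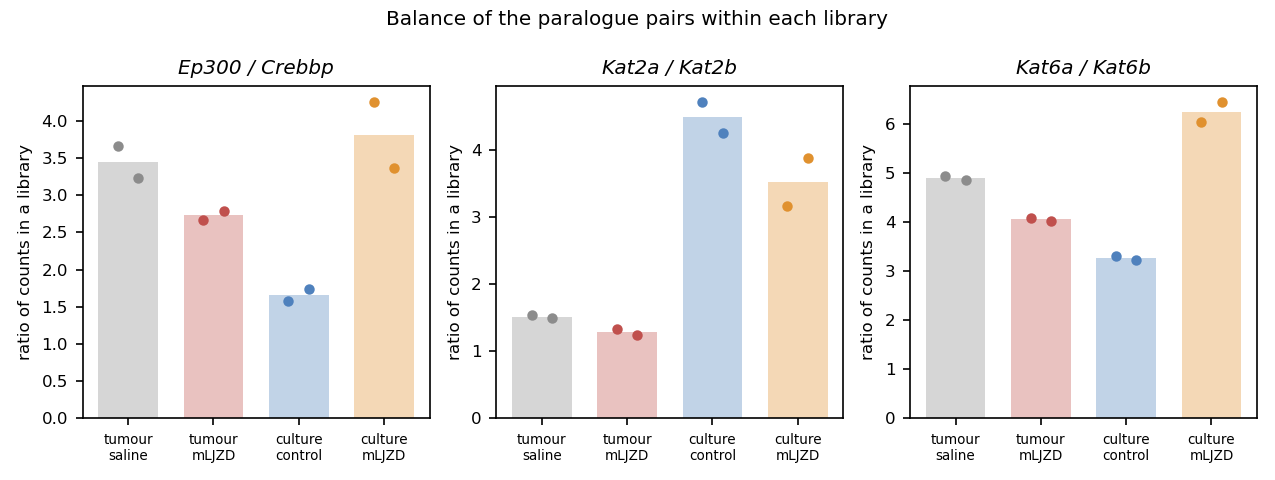
Ratio of counts within each library (vertical axis from 0) for the pairs Ep300 to Crebbp, Kat2a to Kat2b and Kat6a to Kat6b, with a point for each library and a bar for the mean of 2. For Ep300 to Crebbp and Kat6a to Kat6b the control cultures are lowest and the mLJZD tumours lie under the saline tumours. For Kat2a to Kat2b the cultures stand above the tumours.

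Kat2a, the GCN5 gene, was 102 and 98.0 CPM in the saline tumours and 84.9 and 85.9 in the mLJZD tumours. The groups did not overlap and the gene fell by 0.19 on the log2 scale (SE 0.047, adjusted p = 0.00394). That call ended whichever of the 4 tumour libraries was left out, with adjusted p from 0.0541 to 0.117, and in a single fit of all 8 libraries (adjusted p = 0.0582). Trend-removed the value was -0.13 (adjusted p = 0.0336). In the cultures Kat2a was 97.7 and 107 CPM with control serum and 126 and 125 with mLJZD serum. The mLJZD libraries were the higher, with a log2 fold change of 0.24 (SE 0.076, adjusted p = 0.0154). Trend-removed the rise was larger, at 0.52 (adjusted p = 1.28e-04). The call as counted ended with upper-quartile scaling (0.13, adjusted p = 0.181), which moved the median of all genes to -0.12, and without control replicate 1 (0.19, adjusted p = 0.144).

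Kat2b, the PCAF gene, was 66.0 and 65.7 CPM in the saline tumours and 63.8 and 69.1 in the mLJZD tumours. The saline values lay between the mLJZD values, and the log2 fold change was 0.045 (SE 0.055, adjusted p = 0.586). In the cultures it was 20.7 and 25.1 CPM with control serum and 39.9 and 32.1 with mLJZD serum. It rose by 0.59 on the log2 scale (SE 0.13, adjusted p = 0.00117), with both mLJZD libraries above both controls. Trend-removed the value was 0.20 (adjusted p = 0.232), which ended the call, while with merged exon length in the trend it was 0.39 and stayed called (adjusted p = 0.0210). The count ratio of Kat2a to Kat2b was 1.54 and 1.49 in the saline tumours, 1.33 and 1.24 in the mLJZD tumours, 4.72 and 4.25 in the control cultures, and 3.17 and 3.87 in the mLJZD cultures. As counted it was lower with the drug in both settings, but the 2 transcripts fall in different length classes. Trend-removed, the culture rise was 0.52 for Kat2a and 0.20 for Kat2b, so the larger rise was then that of Kat2a. The lower ratio in the cultures thus held only as counted.

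Kat6a, the MOZ gene, had CPM levels near those of Ep300 in every group. It was 199 and 199.8 CPM in the saline tumours and 149 and 169 in the mLJZD tumours. The groups did not overlap, and it fell by 0.29 on the log2 scale (SE 0.060, adjusted p = 0.00105; trend-removed -0.23, adjusted p = 0.00182). Without mLJZD replicate 1 the call ended (-0.21, adjusted p = 0.0672). In the cultures Kat6a was 27.02 and 28.83 CPM with control serum and 99.3 and 107 with mLJZD serum. This was a 3.55-fold rise (log2 1.83, SE 0.086, adjusted p = 2.41e-09). Trend-removed it was 0.94 (adjusted p = 5.69e-06), and 1.28 with merged exon length in the trend.

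Kat6b, the MORF gene, was 40.4 and 41.1 CPM in the saline tumours and 36.5 and 42.1 in the mLJZD tumours, which overlapped (log2 fold change -0.024, SE 0.075, adjusted p = 0.848). It was the lowest of the long genes in the cultures, at 8.15 and 8.92 CPM with control serum and 16.4 and 16.5 with mLJZD serum. It rose by 0.89 on the log2 scale (SE 0.14, adjusted p = 1.13e-04). Trend-removed the value was 0.12 (adjusted p = 0.519). The count ratio of Kat6a to Kat6b was 4.93 and 4.86 in the saline tumours, 4.09 and 4.03 in the mLJZD tumours, 3.31 and 3.23 in the control cultures, and 6.04 and 6.45 in the mLJZD cultures. As for Ep300 and Crebbp, the ratio was lower with the drug in the tumours and higher in the cultures, and the replicates of each group lay close together. Unlike that pair, the 2 transcripts fall in different length classes, over 8000 bases for Kat6a and 4000 to 8000 for Kat6b. Trend-removed, the culture value was 0.94 for Kat6a and 0.12 for Kat6b. The ratio itself was not tested.

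Kat7, the HBO1 gene, was 106 and 106 CPM in the saline tumours and 98.9 and 100.2 in the mLJZD tumours. The libraries did not overlap, yet the log2 fold change of -0.055 (SE 0.047) did not pass the test (adjusted p = 0.416). In the cultures it was 68.6 and 74.0 CPM with control serum and 103 and 107 with mLJZD serum. It rose by 0.50 on the log2 scale (SE 0.078, adjusted p = 7.96e-05), and by 0.44 with the trend removed (adjusted p = 4.35e-04). The value as counted lay above the upper quartile of its length class, 0.18.

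Kat5, the TIP60 gene, was the single member of the 9 called lower in the cultures. It was 35.1 and 35.4 CPM with control serum and 27.6 and 31.9 with mLJZD serum, without overlap. The log2 fold change was -0.30 (SE 0.10, adjusted p = 0.0258), near the lower quartile of its length class, -0.37. Trend-removed it was 0.047 (adjusted p = 0.758), and the call also ended in DESeq2 (adjusted p = 0.0534), with scaling by library totals (adjusted p = 0.0668), without either control culture and without mLJZD replicate 1 (-0.20, adjusted p = 0.198). With merged exon length in the trend it was -0.036 (adjusted p = 0.811). In the tumours Kat5 was 31.6 and 31.6 CPM with saline and 34.87 and 35.01 with mLJZD. The 2 groups did not overlap, and the log2 fold change of 0.18 (SE 0.075, adjusted p = 0.0842) passed only with the trend removed (0.23, adjusted p = 0.0226). In the annotation Kat5 overlaps Rnaseh2c, a ribonuclease H2 subunit gene on the opposite strand, by 426 bases. No source used here says whether counting used strand, so reads in that stretch cannot be assigned to either gene with certainty. Rnaseh2c was at 13.0 to 14.4 CPM in saline tumours, 13.4 to 14.4 in mLJZD tumours, 30.4 to 32.1 in control cultures and 18.9 to 20.1 in mLJZD cultures.

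Kat8, the MOF gene, had the lowest counts, 139 to 204 in a library. It was 10.4 and 10.2 CPM in the saline tumours and 7.59 and 8.86 in the mLJZD tumours, so that log2 fold change was -0.29 (SE 0.14, adjusted p = 0.130). In the cultures it was 7.51 and 9.15 CPM with control serum and 7.29 and 6.06 with mLJZD serum, a log2 fold change of -0.38 (SE 0.19, adjusted p = 0.0985). The libraries did not overlap in either comparison, and neither value passed the test. The culture value passed with upper-quartile scaling (-0.49, adjusted p = 0.0343) and in a single fit of all 8 libraries (-0.46, adjusted p = 0.0270). Kat8 overlaps Prss8 on the opposite strand by 122 bases, and Prss8 was at most 0.121 CPM in any library.

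**Figure D4:**
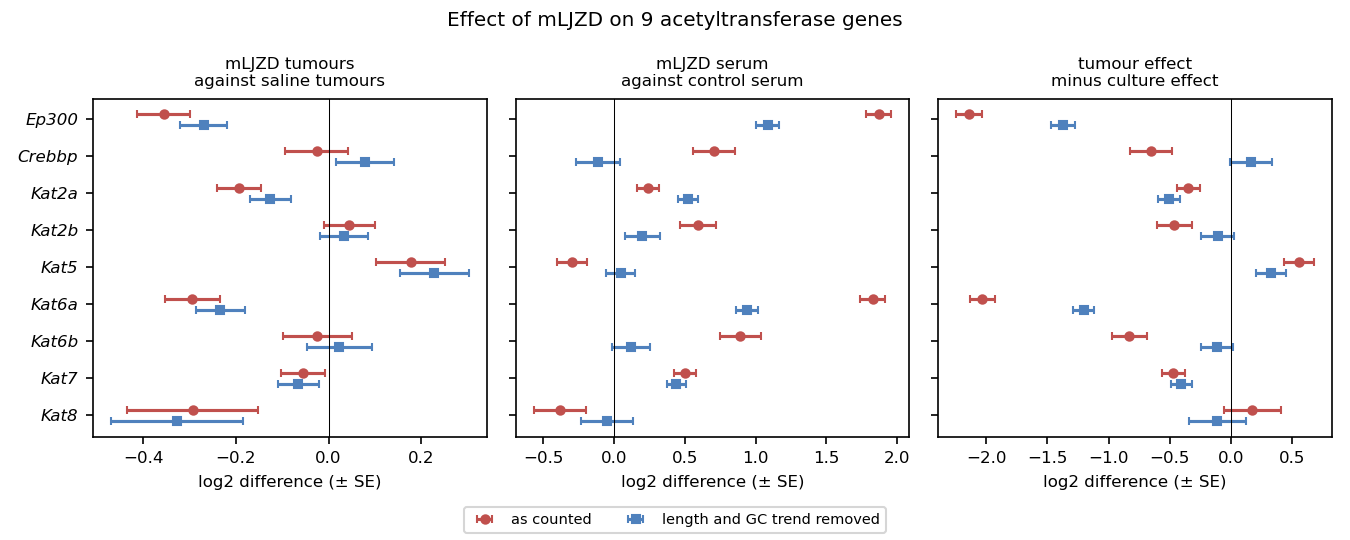
Log2 effect of mLJZD (horizontal axes, ± SE, each with its own scale) on each gene in the tumours, in the cultures, and the tumour effect minus the culture effect. Circles are values as counted and squares trend-removed values. In the cultures Ep300 and Kat6a stay to the right of 0 on both scales, at 1.09 and 0.94 with the trend removed, while Crebbp moves from 0.71 to -0.11.

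Control cultures were also set beside saline tumours, which differ both in growth setting and in the host cells that tumours hold. Here 80.6% of 15332 genes tested were called, 35.7% higher and 44.9% lower in the cultures, and of the 9 genes 6 were lower and 2 higher. This contrast also ran along transcript length. Class medians went from 0.61 under 1000 bases to -1.23 over 8000 (quartiles -2.08 and -0.46), where 82.1% of genes were called lower. Across the 9 genes the rank correlation of length with the log2 difference was -0.83, and -0.77 with the trend removed. Kat6a was lower by 2.67 on the log2 scale (SE 0.058, adjusted p = 5.04e-11), and Ep300 had a log2 difference of -2.52 (SE 0.059, adjusted p = 8.47e-11). Kat6b followed at -2.09, Crebbp at -1.48, Kat2b at -1.36 and Kat7 at -0.41, each called in edgeR with an adjusted p of at most 5.83e-05. These 6 stayed lower with the trend removed, where 78.3% of all genes were called, 37.5% higher and 40.8% lower, at -1.76 for Kat6a, -1.55 for Ep300, -1.29 for Kat6b, -1.05 for Kat2b, -0.45 for Crebbp and -0.32 for Kat7. Kat5 was higher in the cultures by 0.32 (adjusted p = 0.00295) and Kat2a by 0.20 (adjusted p = 0.00914). Both of those calls ended with the trend removed, and for Kat2a the sign turned (-0.053). The Kat2a libraries overlapped, at 102 and 98.0 CPM in saline tumours and 97.7 and 107 in control cultures. Its call also ended in DESeq2 (adjusted p = 0.0533) and on leaving out either saline tumour (adjusted p = 0.0569 and 0.117). Both also ended with scaling by library totals, which moved the median of all genes from -0.15 to -0.31. Since the control cultures enter both this comparison and the culture effect, the values of Ep300 and Kat6a in the 2 are not independent.

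The difference between the 2 drug effects was tested in a single model of the 8 libraries as their interaction, with 44.4% of 16090 genes tested called. The tumour effect was called above the culture effect for 23.8% of all genes and below it for 20.5%, and of the 9 acetyltransferase genes for 1 and 7. Ep300 had the largest difference of the 9, -2.14 on the log2 scale (SE 0.11, adjusted p = 4.43e-10), and Kat6a followed at -2.03. With the trend removed 35.9% of all genes were called, 23.1% higher and 12.9% lower. Of the 9 the difference was then called for Ep300 at -1.37, Kat6a at -1.21, Kat2a at -0.51, Kat7 at -0.40 and Kat5 at 0.33. The median over all genes in this fit was 0.115, above 0, and the adjusted p of Kat5 in edgeR was 0.0445. In the separate trend-removed fits Kat5 was 0.23 in the tumours and 0.047 in the cultures. Kat8 was called on neither scale.

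Many other genes had a level pattern much like that of most of the acetyltransferase genes. Over the 8 libraries, among 9246 protein-coding genes averaging 10 CPM or more, the log2 CPM closest to Ep300 by Pearson r was that of Acap2 (0.999), Hcfc1 (0.998) and Son (0.998). For Kat6a they were Frmd4a (0.999), Kmt2a (0.999) and Elf4 (0.998). For Ep300 804 genes passed an r of 0.95, for Kat6a 852, for Kat6b 878 and for Crebbp 638. The shorter Kat2b had 666, Kat7 625 and Kat2a 112, against 4 for Kat5 and 1 for Kat8. Ep300 and Kat6a had an r of 0.997 with each other, and Kat6b and Kat2b of 0.990. These values are a description, since the libraries form 4 groups and share depth and length effects.

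The partners of the enzymes were counted in the same fits. Of the 9 genes for BRPF and JADE scaffolds and ING subunits, which anchor Kat6a, Kat6b and Kat7 to chromatin, 8 were tested in the tumours, where 4 fell and 1 rose. Jade2 went from 143 ± 5.8 to 106 ± 0.30 CPM (log2 fold change -0.40, adjusted p = 2.33e-05), Jade1 from 59.6 ± 3.0 to 44.7 ± 4.0 (-0.38, adjusted p = 3.08e-04) and Brd1 from 151 ± 1.9 to 124 ± 8.6 (-0.26, adjusted p = 0.00248). In the cultures 7 of 9 rose and none fell, among them Jade1 from 35.1 ± 0.65 to 63.8 ± 4.9 CPM (0.80, adjusted p = 4.24e-06). With the trend removed 5 rose and 1 fell.

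Of the 11 partners of Kat8 in the MSL and NSL complexes 5 fell in the tumours and none rose. Kansl1, the scaffold of the NSL complex, went from 103 ± 1.8 to 43.4 ± 7.2 CPM (log2 fold change -1.22, adjusted p = 1.03e-09; trend-removed -1.19). Hcfc1, a chromatin adaptor shared with other complexes, went from 283 ± 1.1 to 226 ± 7.2 CPM (-0.29, adjusted p = 2.27e-04). In the cultures 7 rose and 1 fell, or 4 and 1 with the trend removed. Hcfc1 rose by 1.29 (trend-removed 0.73, adjusted p = 1.58e-05) and Kansl1 by 0.92 (trend-removed 0.51, adjusted p = 9.69e-04). The 1 that fell as counted was Mcrs1 (-0.69, adjusted p = 5.54e-06), with a transcript of 1916 bases.

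Partners of Kat2a and Kat2b in SAGA and ATAC moved in both directions. In the tumours 2 of 23 tested rose and 2 fell. Taf12 went from 40.1 ± 4.9 to 51.0 ± 0.33 CPM (0.38, adjusted p = 0.00103) and Tada2a, an adaptor that binds the enzyme, from 17.3 ± 0.85 to 13.2 ± 2.0 (-0.36, adjusted p = 0.0330). In the cultures 8 rose and 6 fell, or 6 and 4 with the trend removed. The scaffold gene Trrap, at 12479 bases, rose by 0.97 (adjusted p = 1.00e-07) but by 0.16 with the trend removed (adjusted p = 0.0478), and Taf10 fell by 0.95 (trend-removed -1.15, adjusted p = 1.35e-05).

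Of the 18 partners of Kat5 in the TIP60/NuA4 complex 3 rose and 1 fell in the tumours. Morf4l1 (0.27, adjusted p = 0.00304) and Morf4l2 (0.19, adjusted p = 0.00408) rose. Ep400, the remodelling ATPase of the complex, fell by 0.19 (adjusted p = 0.0188, and trend-removed -0.080, adjusted p = 0.248). In the cultures 6 rose and 6 fell, or 6 and 5 with the trend removed. Ep400 went from 69.7 ± 3.8 to 181 ± 2.3 CPM (1.32, adjusted p = 1.13e-08; trend-removed 0.54), and Epc2 from 25.5 ± 0.61 to 51.1 ± 0.28 (0.95; trend-removed 0.51, adjusted p = 8.09e-04).

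Among 22 tested factors that bind p300 and CBP, 3 rose and 4 fell in the tumours. Cited2, which competes with HIF1A for CBP and p300, went from 90.3 ± 0.11 to 110.0 ± 1.2 CPM (0.32, adjusted p = 4.06e-05), and Crem, a cyclic AMP response factor, rose by 0.66 (adjusted p = 0.00103). Smad3, a signal transducer of the TGF-beta pathway, went from 150.2 ± 3.5 to 110.3 ± 4.8 CPM (-0.41, adjusted p = 2.16e-05). In the cultures 10 of 19 rose and 3 fell, and with the trend removed 5 rose and 4 fell. The coactivator gene Ncoa2 rose by 1.26 (trend-removed 0.45, adjusted p = 0.00260) and the H3K4 methyltransferase gene Kmt2c by 1.55 (trend-removed 0.43, adjusted p = 0.00800).

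Among other genes described as acetyltransferases of histones, 2 of 15 rose and 6 fell in the tumours, with Hat1, which acetylates new histone H4, going from 115 ± 4.7 to 94.5 ± 0.30 CPM (-0.25, adjusted p = 7.96e-04) and Clock rising by 0.29 (adjusted p = 6.80e-04). In the cultures 9 of 14 rose and 1 fell, the latter Naa10 (-0.95, trend-removed -0.79, adjusted p = 0.00133). These counts were 6 and 1 with the trend removed. Of 24 tested genes for readers of acetyl-lysine, 3 rose and 8 fell in the tumours. Atad2, a bromodomain ATPase, went from 312 ± 2.4 to 194 ± 1.6 CPM (-0.65, adjusted p = 2.62e-08). In the cultures 17 readers rose and 3 fell, and 11 rose and 2 fell with the trend removed, Bptf by 0.64 (adjusted p = 1.52e-04) and Phip by 0.47 (adjusted p = 8.61e-04).

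The last lists hold the enzymes that put methyl groups on lysine 27 of histone H3 or remove them, and the suppliers of acetyl-CoA, the donor of the acetyl group. Of 11 genes for methylation and its removal, 2 rose and 2 fell in the tumours, with the demethylase gene Kdm6b going from 50.9 ± 0.40 to 75.2 ± 5.6 CPM (0.60, adjusted p = 6.53e-07) and the methyltransferase gene Ezh2 from 101 ± 2.4 to 72.5 ± 2.8 (-0.45, adjusted p = 3.07e-06). In the cultures 6 rose and 1 fell, or 3 and 1 with the trend removed, and Kdm6b rose by 0.58 (trend-removed 0.33, adjusted p = 0.00641). Of 16 genes for acetyl-CoA supply, 3 rose and 2 fell in the tumours. Cpt1a, which admits fatty acids to mitochondria, fell by 0.48 in the tumours (adjusted p = 2.56e-06) and rose by 0.88 in the cultures (trend-removed 0.71, adjusted p = 2.99e-05). In the cultures 4 of 15 rose and 6 fell, or 4 and 4 with the trend removed. Among those that fell as counted was the citrate carrier gene Slc25a1 (-0.71, trend-removed -0.14, adjusted p = 0.166).

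Over the 142 distinct partner genes tested in the tumours, 18 rose and 33 fell, and over the 138 tested in the cultures 71 rose and 26 fell. With the trend removed the counts were 22 and 31 in the tumours and 48 and 22 in the cultures. All genes tested had 15.4% higher and 16.0% lower in the tumours and 28.8% higher and 26.6% lower in the cultures. With the trend removed these shares were 16.4% and 16.9% in the tumours and 18.6% and 20.7% in the cultures. The median transcript length of the lists ran from 3003 bases for acetyl-CoA supply to 6013 for the readers, in the genes tested in the cultures.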

How the data were processed

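Raw counts per gene were deposited as a single table with a column for each of the 8 libraries. The submitters' processing notes name featureCounts 2.0.3, SAMtools 1.14, HISAT2 2.2.1, Trim Galore, FastQC 0.12.1 and the build GRCm39. No source used here gives the annotation release, the strand setting or the handling of reads with several matches. Libraries hold 16594912 to 29363861 counts.

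Symbols and transcript lengths came from GENCODE M21, an annotation of an earlier build, which named 52029 of the 56953 identifiers. The others took 0.343% to 0.596% of a library's counts and were tested without a name. CPM are counts scaled to the library total, and TPM use the longest transcript.

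The two-sided quasi-likelihood F test of edgeR 4.0.16 (R 4.3.3) was run with TMM normalization and the filterByExpr filter, and p-values were adjusted by the Benjamini-Hochberg method across every gene tested. Each comparison used its own 4 libraries and the interaction all 8. An SE was obtained from the log2 fold change and F. Trend-removed values add an offset per library, a natural spline with 5 degrees of freedom on log length and on GC content, centred on its median. Both fits were also run on simulated counts, with a single dispersion for all genes and an added trend linear in log length, without GC content. That setting is simpler than these data, so it cannot show how fully the trend was removed here. Alternatives were DESeq2 1.42.0, other scalings, no filter, a replicate block, merged exon length, a single fit of all libraries and leaving out each library.

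Separate animals or cultures are not named for the replicates, so a p-value reflects the spread between these libraries alone, which may be technical. Replicates of each group differed by more than counting noise. The members and the lists were chosen with earlier results of these data known. The text names the 9 members, up to 4 called genes of each list with the largest change in tumours and in cultures, and the genes with the level pattern most like a member. Protein sequences are not used here.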

Additional observations from a re-analysis of the deposited data

Results flagged for a closer look

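For 8 of the 9 genes the effect of mLJZD in the tumours differed from its effect in the cultures in edgeR's interaction test over all 8 libraries, with adjusted p from 4.43e-10 for Ep300 to 0.0131 for Kat2b. The tumour effect minus the culture effect, on the log2 scale, was -2.14 for Ep300, -2.03 for Kat6a, -0.83 for Kat6b, -0.65 for Crebbp, -0.47 for Kat7, -0.46 for Kat2b, -0.35 for Kat2a and 0.56 for Kat5. Background in this test was high, with 44.4% of all genes called. With the trend on transcript length and GC content removed, the difference was no longer called for Kat6b (-0.11, adjusted p = 0.580), Kat2b (-0.11, adjusted p = 0.613) and Crebbp (0.16, adjusted p = 0.512), and for Crebbp its sign turned. With merged exon length in that trend these 3 were not called either, at -0.030 for Kat6b (adjusted p = 0.948), -0.31 for Kat2b (adjusted p = 0.0930) and -0.064 for Crebbp (adjusted p = 0.855), whose sign then did not turn. On leaving out 1 library, 6 to 8 of the 9 genes were called. Without mLJZD tumour replicate 1 neither Crebbp (-0.63, adjusted p = 0.0584) nor Kat2b (-0.43, adjusted p = 0.0976) was called. Kat2b was also not called without control culture replicate 1 (-0.35, adjusted p = 0.0620) or mLJZD culture replicate 1 (-0.30, adjusted p = 0.0612). Crebbp was -0.37 without mLJZD culture replicate 2, and still called. The tumours hold host cells that the cultures lack, and the part of these cells in the differences was not tested.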

How the results depend on the processing

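Counts here are of calls in edgeR unless another tool is named. In the tumours, leaving out 1 library gave 1087 to 3536 called genes against 4835, with 1087 without mLJZD replicate 1 and 1974 without mLJZD replicate 2, and 1 to 2 of the 9 genes against 3. DESeq2 gave 3287 genes. In the cultures the trend-removed fit called 4 of the 9 genes, or 5 with merged exon length in the trend, an alternative chosen after seeing the data, and leaving out 1 library gave 6 to 8 against 8. For the interaction the trend-removed fit called 5 of the 9 with either length, and leaving out 1 library gave 5872 to 7200 genes and 6 to 8 of the 9. Scaling by library totals lowered the rising partner genes in tumours from 18 to 10, and moved the interaction's median over all genes from 0.066 to -0.094 and its share of higher calls from 53.7% to 39.7%.

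Signs turned only for values not called in the fit that turned them. With the trend removed Crebbp and Kat6b in tumours became 0.079 and 0.023 (0.050 and 0.045 with merged exon length), Crebbp and Kat5 in cultures -0.11 and 0.047 (not turned, at 0.12 and -0.036, with merged exon length), Kat2a in the control contrast -0.053 (-0.11 with merged exon length), and Crebbp and Kat8 in the interaction 0.16 and -0.11 (-0.064, not turned, and -0.0041 with merged exon length). Leaving out 1 tumour library gave -0.11 to 0.065 for Crebbp and -0.11 to 0.066 for Kat6b. Merged exon length in TPM changed the order of 12 pairs of genes over the 4 groups.

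Replicate numbers recur in every group, but no label ties them, and the deviations of same-numbered libraries correlated at -0.48 in tumours and -0.099 in cultures. With a replicate block 4456, 7340, 12125 and 7024 genes were called in tumours, cultures, the control contrast and the interaction, and 3, 8, 8 and 8 of the 9. With the replicate block and the trend removed the counts of the 9 were 4, 4, 6 and 5, and the values with turned signs were 0.081 and 0.023 for Crebbp and Kat6b in tumours, -0.13 and 0.040 for Crebbp and Kat5 in cultures, -0.054 for Kat2a in the control contrast, and 0.19 and -0.11 for Crebbp and Kat8 in the interaction.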
